A study of Mus musculus with 20 samples.

Results

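Gfap, Vim, Nes, Synm and Des encode intermediate filament proteins. These 5 genes, taken by symbol from the authors' count table of 39017 genes, are described here in every library. RNA was sequenced from microglia and astrocytes of the ipsilateral forebrain of adult male C57BL/6 mice 7 days after lateral fluid percussion injury (FPI), in which a pulse of fluid is driven onto the exposed dura, or after sham surgery. There were 5 libraries each of sham microglia, FPI microglia, sham astrocytes and FPI astrocytes, 20 in all, each from a single mouse. Sham mice had the same craniectomy, anaesthesia and connection to the device as FPI mice, without the pulse, so that both groups carry the effects of surgery. Microglia were sorted live as CD11b+ cells of intermediate CD45, and astrocytes by the surface antigen ACSA-2, so that the sort itself used none of the 5 genes. The comparisons ask whether the filament genes differed between FPI and sham in astrocytes, and what was measured of them in the sorted microglia.

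Intermediate filaments are rope-like polymers of coiled-coil proteins that give a cell mechanical strength. GFAP is the filament protein by which astrocytes are most often stained, and its increase is the classical sign of reactive astrogliosis after injury. Vimentin polymerizes alone or with GFAP and is found in immature and reactive astrocytes, and also in fibroblasts, endothelium, mural cells and activated myeloid cells. Nestin and synemin cannot form filaments by themselves and join other filament proteins, such as vimentin, as partners. Nestin is known from neural progenitors and from vessel walls. Desmin is the filament protein of muscle and of the mural cells that wrap small vessels.

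Gfap lies on chromosome 11 (ENSMUSG00000020932, minus strand, 102887336 to 102900912 in GRCm38), Vim on chromosome 2 (ENSMUSG00000026728, plus strand, 13573927 to 13582826), Nes on chromosome 3 (ENSMUSG00000004891, plus strand, 87971078 to 87980451), Synm on chromosome 7 (ENSMUSG00000030554, minus strand, 67730160 to 67759742) and Des on chromosome 1 (ENSMUSG00000026208, plus strand, 75360329 to 75368579). In the GENCODE M21 annotation the longest coding transcripts of Gfap, Vim and Des have 9 exons each, and those of Nes and Synm have 4. Exons of Synm overlap the antisense gene Ttc23, which had 2021 counts over the 20 libraries, and whether the counting used strand is not given in the sources used here.

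Gfap and Vim were the pair of members that varied together most closely (below), and the stretch from 120 bases before to 20 bases after the RefSeq start of each is shown for that reason (GRCm38.p6, chr11:102897181-102897320, minus strand, and chr2:13574191-13574330, plus strand). Both stretches lie inside the GENCODE gene spans given above, whose outermost starts are further upstream than the RefSeq starts used here. The capitals mark the letters TTCNNNGAA, the consensus read by STAT factors, in Gfap and the TATA letters TATAAA in Vim.
Gfap promoter: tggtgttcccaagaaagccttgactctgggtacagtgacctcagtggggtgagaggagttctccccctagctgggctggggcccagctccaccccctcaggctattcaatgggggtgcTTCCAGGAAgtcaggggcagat
Vim promoter: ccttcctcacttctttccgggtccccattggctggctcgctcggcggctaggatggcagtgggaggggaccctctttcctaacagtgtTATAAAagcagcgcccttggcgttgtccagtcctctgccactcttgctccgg
Windows of 300 bases around the starts of all 5 genes were searched on both strands for TTCNNNGAA, TATAAA, the AP-1 letters TGANTCA, the nuclear factor I letters TTGGC, the GC box GGGCGG, the E box CANNTG and the SOX letters ACAAAG. TTCNNNGAA was found in Gfap alone of the 5, beginning 2 bases before the start, and 8.3% of the 32851 promoters of the table hold it. TATAAA was found in Vim alone, and 13.62% of all promoters hold it. TTGGC was found in Vim and in Synm, and 46.71% of all promoters hold it. A match of letters is a description and shows no binding.

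The libraries held between 5623349 and 13110857 gene counts, and levels are given in CPM, counts scaled to library size with TMM factors over all 20 libraries. All 12 astrocyte markers of a list that holds none of the 5 members were at 10 CPM or more in every astrocyte library, and all 12 microglial markers were so in every microglia library. The summed astrocyte markers ran from 11129 to 35005 CPM in sham astrocytes and from 12610 to 34299 in FPI astrocytes, and in both groups the lowest values were those of replicates 4 and 5. FPI astrocyte replicate 5 carries a library name with the suffix used for microglia and the animal number of FPI astrocyte replicate 2. Its microglial markers summed to 225 CPM, against at least 24240 in microglia libraries, and its title was followed. By these names replicates 2 and 5 may come from the same mouse, so the FPI astrocytes may hold fewer mice than libraries. Going by the animal numbers in library names, 3 mice were the source of both an astrocyte and a microglia library.

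In sham mice all 5 genes were higher in astrocytes than in microglia. The difference passed the test for each (edgeR quasi-likelihood test, adjusted p below 0.1 and a log2 difference above 0.6, the rule by which a gene is called throughout), as it did for 35.6% of the 15077 genes tested in this direction. It was 5.14 on the log2 scale for Gfap (SE 0.62, adjusted p = 3.39e-07), 4.79 for Synm (SE 0.42, adjusted p = 2.46e-09), 3.31 for Vim (SE 0.37, adjusted p = 1.14e-07) and 2.21 for Nes (SE 0.46, adjusted p = 0.000305). Des, with 8 counts in all over the 5 sham microglia libraries and none in 3 of them, differed by 6.51 (SE 0.90, adjusted p = 2.06e-06). Nes was the member whose levels in the cell types lay closest.

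**Figure D1:**
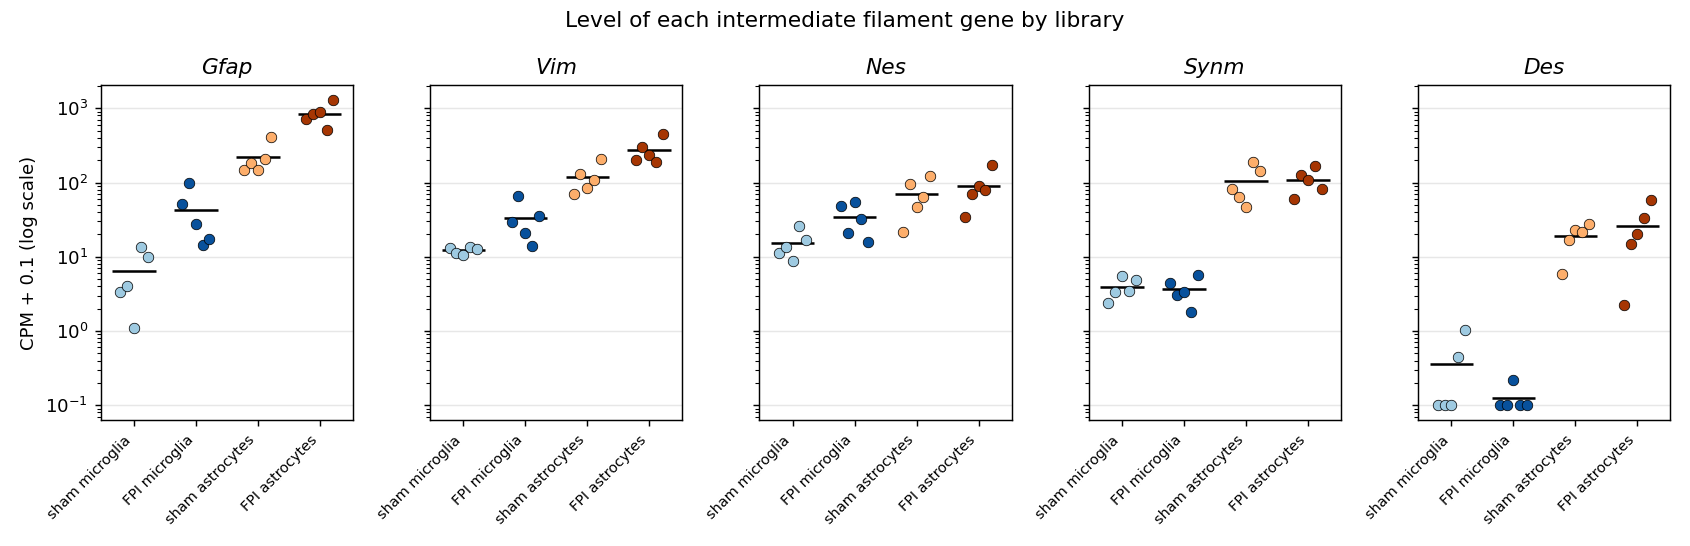
CPM of each of the 5 genes, with 0.1 added and on a log scale, in the 4 groups. Points are libraries in the order of their replicate numbers and bars are the means of 5 libraries. In astrocytes the Gfap values of FPI lie above all sham values, and Des is near 0 in microglia.

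Per kilobase of its longest coding transcript, Gfap was the most abundant of the 5 in sham astrocytes at 82.4 ± 40.9 CPM per kb (SD, n = 5), before Vim at 54.4 ± 24.1. Gfap was above Vim in each of the 5 libraries, though their ranges overlapped. Synm at 13.4 ± 7.67, Nes at 11.4 ± 6.51 and Des at 6.23 ± 2.73 CPM per kb followed. All Vim values were above all Synm values, while Synm, Nes and Des overlapped and Synm was above Nes in 2 of 5 libraries. In FPI astrocytes Gfap was at 320 ± 107, Vim at 126 ± 48.8, Nes at 14.5 ± 8.19, Synm at 13.9 ± 5.31 and Des at 8.47 ± 6.97 CPM per kb. The order of the leading pair was the same, and Nes, Synm and Des again overlapped.

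Gfap was higher in every FPI astrocyte library than in any sham astrocyte library. Its level was 148, 184, 147, 205 and 407 CPM in sham replicates 1 to 5, and 717, 837, 882, 516 and 1286 CPM in FPI replicates 1 to 5. The means were 218 ± 108 and 848 ± 283 CPM (SD, n = 5), a 3.88-fold ratio. Sham replicate 5 was the highest of its group and FPI replicate 4 the lowest of its own, and the groups did not overlap, as was the case with FPI above sham for 0.451% of the 13741 genes tested. The log2 fold change was 1.98 (SE 0.34), the 4th smallest p of all genes tested, but with an adjusted p of 0.151 in edgeR Gfap was not called. A single gene was called higher in this comparison, 0.00728% of those tested. On the same counts DESeq2 called Gfap, with a log2 fold change of 1.99 (SE 0.34) and an adjusted p of 1.03e-05, among 23 genes in all. Without sham replicate 5 the edgeR fit gave 2.34 (adjusted p = 0.0478). Without FPI replicate 5 it gave 1.76 (adjusted p = 0.364), and with FPI replicates 2 and 5 summed as 1 library 1.85 (adjusted p = 0.379).

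Vim was also higher in FPI astrocytes on average, by a smaller fold than Gfap. It measured 69.8, 128, 85.4, 108 and 205 CPM in sham replicates 1 to 5, and 204, 299, 238, 190 and 453 CPM in FPI replicates 1 to 5. The groups overlapped only through sham replicate 5, which was above FPI replicates 1 and 4. The means were 119 ± 52.9 and 277 ± 107 CPM (SD, n = 5), and the log2 fold change was 1.24 (SE 0.32, unadjusted p = 0.00228, adjusted p = 0.999 in edgeR), so Vim was not called. DESeq2 gave 1.25 (adjusted p = 0.123), and, with no filter on low counts, 1.24 (adjusted p = 0.0992), which is a call. In all, 2 of the 5 members, Gfap and Vim, had an unadjusted edgeR p below 0.05 with a higher level after FPI, as did 1.57% of the genes tested. None was lower at that p.

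Across the 10 astrocyte libraries Gfap and Vim moved together, with r = 0.93 between their deviations from the group means of log2 CPM. Among 9182 genes with a mean of at least 10 CPM, Vim was the gene most like Gfap by this measure and Gfap the gene most like Vim. The next most like Gfap were Rp2h (r = 0.89), Raly (0.86), Rab8b (0.85) and Zfp36 (0.84), and the next most like Vim were Cmtm6, Gtf2ird2 and Ly6e (0.92, 0.92 and 0.91) and Raly (0.90). None of these others was called after FPI, and their log2 fold changes ran from 0.08 for Cmtm6 to 0.60 for Zfp36. With 10 libraries and so many genes, high values of r arise among unrelated genes, and the ranking is a description.

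Nestin, synemin and desmin RNA showed no call and wide overlap between the groups. Nes measured 21.6, 96.5, 46.8, 63.1 and 122 CPM in sham replicates 1 to 5 and 34.4, 69.6, 89.9, 80.0 and 170 CPM in FPI replicates 1 to 5, a log2 fold change of 0.37 (SE 0.46). In both groups replicate 1 was the lowest and replicate 5 the highest. Synm measured 81.2, 64.4, 46.0, 190 and 143 CPM in sham and 60.3, 125, 109, 169 and 82.1 CPM in FPI replicates 1 to 5, a log2 fold change of 0.08 (SE 0.38). Every FPI value lay within the sham range. Des measured 5.83, 16.6, 23.2, 21.2 and 27.5 CPM in sham and 2.16, 14.6, 20.4, 33.5 and 57.6 CPM in FPI replicates 1 to 5, a log2 fold change of 0.46 (SE 0.62). Its lowest and its highest value were both FPI libraries, so that the spread within FPI was wider than the difference between groups. The adjusted p of each was 0.999 in edgeR.

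The spread of these 3 genes ran with the RNA of other cell types in the sorted astrocytes. Correlations of log2 levels with the summed markers of 11 cell types were computed over the 10 libraries, 55 in all, with permutation p-values adjusted over the 55. Des followed the 10 mural cell markers, which summed to between 1463 and 7778 CPM in sham and between 436 and 10594 CPM in FPI astrocytes, with r = 0.96 (permutation p = 9.00e-05, adjusted 0.00247) and rho = 0.85 (permutation p = 0.00285, adjusted 0.0315). Without the 2 libraries farthest from the median of the markers, r was 0.86. Nes followed the 9 endothelial markers, at 37.0 to 558 CPM in sham and 126 to 486 CPM in FPI, with r = 0.93 (permutation p = 4.00e-05, adjusted 0.00220) and rho = 0.89 (permutation p = 0.00137, adjusted 0.0315), and r = 0.83 without the 2 farthest libraries. Nes also ran with the mural markers (r = 0.83, adjusted permutation p = 0.0301, rho = 0.85, adjusted 0.0315, and 0.89 without the 2 farthest), with the fibroblast markers (r = 0.87, adjusted permutation p = 0.0162, rho = 0.87, adjusted 0.0315, and 0.78 without the 2 farthest) and with the ependymal markers (r = 0.80, adjusted permutation p = 0.0345, rho = 0.78, adjusted 0.0659, and 0.52 without the 2 farthest). Des ran with the ependymal markers as well (r = 0.79, adjusted permutation p = 0.0345, rho = 0.66, adjusted 0.172, and 0.34 without the 2 farthest). Synm was low where the 9 progenitor markers were high (r = -0.86, adjusted permutation p = 0.0162, rho = -0.89, adjusted 0.0315, and -0.73 without the 2 farthest) and where the astrocyte markers were high (r = -0.81, adjusted permutation p = 0.0357, rho = -0.83, adjusted 0.0470, and -0.62 without the 2 farthest). Most of the progenitor sum was Egfr, at a mean of 181 of 234 CPM in sham and 159 of 240 CPM in FPI astrocytes. Synm was high where the 8 oligodendrocyte markers were, at 1675 to 18020 CPM in sham and 3255 to 11337 CPM in FPI, with r = 0.80 (permutation p = 0.00517, adjusted 0.0345), rho = 0.73 (permutation p = 0.0197, adjusted 0.0962) and r = 0.70 without the 2 farthest. With the markers of oligodendrocyte precursors Synm had r = 0.69 (adjusted permutation p = 0.113, rho = 0.79, adjusted 0.0599, and 0.95 without the 2 farthest). Cspg4, which is on both the precursor and the mural list, held a mean of 284 of 510 CPM of the precursor sum in sham astrocytes. In FPI astrocytes it held 368 of 741 CPM. Within replicates 1 to 3, 6 libraries, r was 0.95 for Des with mural and 0.99 for Nes with endothelial markers. For Synm it was 0.71 with oligodendrocyte and 0.97 with precursor markers, and replicates 4 and 5 hold too few libraries for a value. No marker of the mural, endothelial or oligodendrocyte list stayed below 1 CPM throughout either astrocyte group. The part of these cells in the levels of Nes, Synm and Des was not tested, and in sorted bulk RNA more cells of a type and more RNA per cell cannot be told apart.

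**Figure D2:**
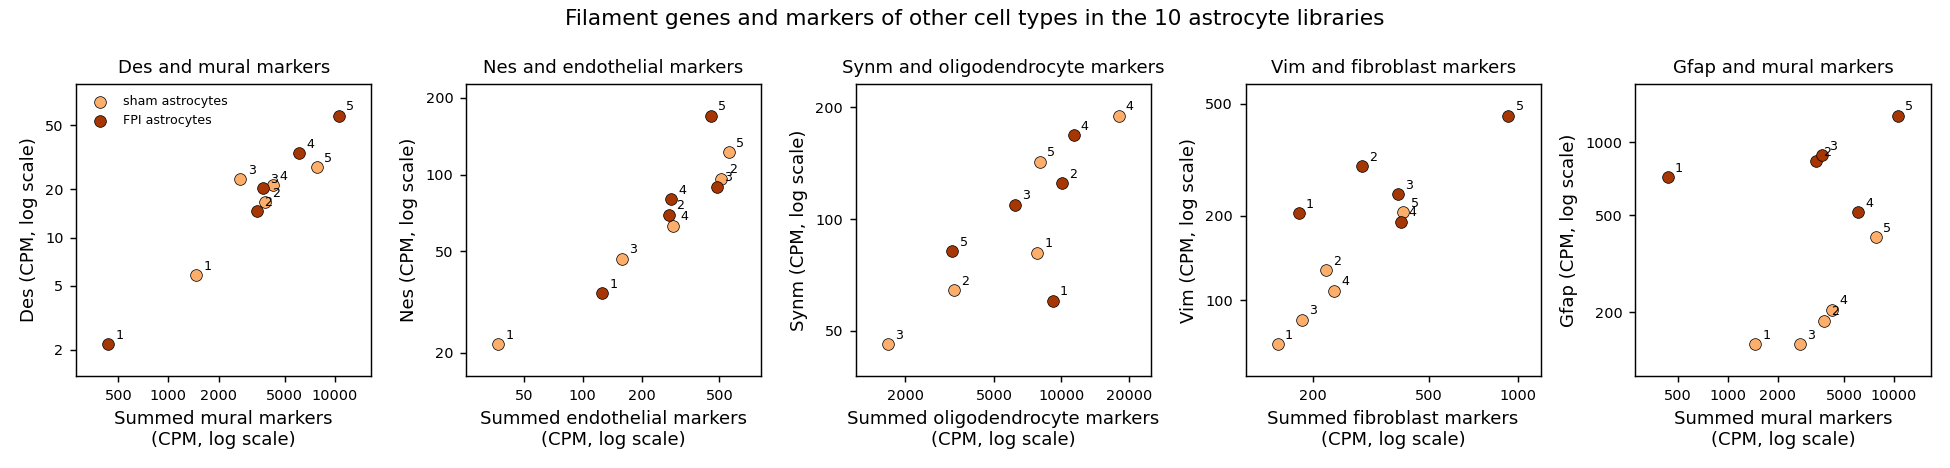
CPM of a filament gene against the summed CPM of a marker list in the 10 astrocyte libraries, both on log scales, with replicate numbers beside the points. Des, Nes and Synm run with the mural, endothelial and oligodendrocyte markers with sham and FPI points intermixed. Vim is drawn against the fibroblast markers, with which it ran at r = 0.82. For Gfap the FPI libraries lie above the sham libraries at like mural markers (r = 0.18). Gfap ran more closely with the fibroblast and microglial markers (r = 0.72 for each), which are not drawn for it.

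For Gfap the mural markers gave r = 0.18 (permutation p = 0.639, adjusted 0.799, rho = 0.33, permutation p = 0.346, adjusted 0.505, and 0.46 without the 2 farthest libraries). The endothelial markers gave r = 0.43 (adjusted permutation p = 0.397). For Vim r was 0.38 with mural and 0.61 with endothelial markers (adjusted permutation p = 0.480 and 0.148). Between deviations from the group means the mural markers gave 0.49 for Gfap and 0.65 for Vim. The endothelial markers gave 0.61 and 0.75. With the log2 sum of the mural markers as a term in the edgeR fit the log2 fold change of Gfap was 2.06 (adjusted p = 0.0382), which is a call, and that of Vim 1.31 (adjusted p = 0.223). The 8 fibroblast markers summed to between 152 and 408 CPM in sham and between 179 and 931 CPM in FPI astrocytes, 5 of them had an unadjusted p below 0.05 with a higher level after FPI, and none was called. They ran with Vim (r = 0.82, permutation p = 0.00328, adjusted 0.0301, rho = 0.73, permutation p = 0.0203, adjusted 0.0962) and less closely without the 2 farthest libraries (r = 0.58). For Gfap they gave r = 0.72 (permutation p = 0.0158, adjusted 0.0670, rho = 0.64, permutation p = 0.0547, adjusted 0.201, and 0.49 without the 2 farthest). Between deviations from the group means r was 0.72 for Gfap and 0.80 for Vim. With the log2 sum of the fibroblast markers as a term the log2 fold change was 1.65 for Gfap (adjusted p = 0.280) and 0.84 for Vim (adjusted p = 0.872). The 12 microglial markers summed to between 33.8 and 66.6 CPM in sham and between 53.6 and 225 CPM in FPI astrocytes, at most 0.715% of the mean sum in microglia libraries of the same condition. Of these markers, 2 stayed below 1 CPM throughout sham and 1 throughout FPI astrocytes. The highest share times the mean level in FPI microglia gives 0.300 CPM of Gfap and 0.235 CPM of Vim, if the RNA had the make-up of the sorted microglia. Of the 10 microglial markers tested, 8 had an unadjusted p below 0.05 with a higher level after FPI, the median log2 difference of the 10 was 3.39, and Ctss, from this list, was the single gene called in astrocytes. Their sum gave r = 0.72 with Gfap (permutation p = 0.0239, adjusted 0.0938, rho = 0.66, permutation p = 0.0435, adjusted 0.172, and 0.54 without the 2 farthest libraries) and 0.10 between deviations from the group means. With their log2 sum as a term the log2 fold change was 1.84 for Gfap (SE 0.53, adjusted p = 0.987) and 0.91 for Vim (SE 0.54, adjusted p = 0.987). Of 6 markers of oligodendrocyte precursors tested, 3 had an unadjusted p below 0.05 with a higher level after FPI, and none was called. Pdgfra is on both lists and is counted among these 3 and among the 5 fibroblast markers. The precursor sum ran from 251.9 to 812 CPM in sham and from 351 to 1401 CPM in FPI astrocytes, and the part of these cells was not tested. These terms were chosen after the values had been seen, and the part of fibroblasts in Gfap and Vim was not tested further.

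The make-up of the filament RNA differed between FPI and sham astrocytes. Of the summed CPM per kb of the 5 genes, Gfap held 48.9% ± 4.10 in sham and 66.2% ± 4.74 in FPI astrocytes (SD, n = 5), from 44.2% to 53.9% and from 59.6% to 71.7%, without overlap. Vim held 32.5% ± 3.00 and 25.9% ± 2.21, Synm 8.20% ± 4.03 and 3.25% ± 2.01, Nes 6.58% ± 2.34 and 2.92% ± 1.02, and Des 3.84% ± 1.76 and 1.70% ± 1.26. With the length of all annotated exons in place of the transcript length the share of Gfap was 48.6% ± 4.56 and 68.3% ± 5.72. The log2 ratio of Vim to Gfap, which does not depend on lengths or on the scaling of libraries, was lower by 0.77 in FPI than in sham (exact permutation test, two-sided, p = 0.00794, the smallest that 5 against 5 can give, and 0.0357 adjusted over the 9 ratios tested). It ran from -1.08 to -0.52 in sham and from -1.89 to -1.44 in FPI libraries. The ratio to Gfap fell by 1.62 for Nes and by 1.85 for Synm (exact permutation p = 0.0159 and adjusted 0.0357 for each), while for Des it differed by -1.99 (exact permutation p = 0.0317, adjusted 0.0571). Without any of 6 libraries in turn the Des ratio missed an unadjusted p of 0.05 (largest exact permutation p = 0.0635). Gfap, the denominator, was itself higher after FPI, so a gene of unchanged level also gives a lower ratio and share. The lower ratios and shares of Nes, Synm and Des therefore show no change in these genes themselves. How many of all genes would pass the same ratio test was not counted.

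**Figure D3:**
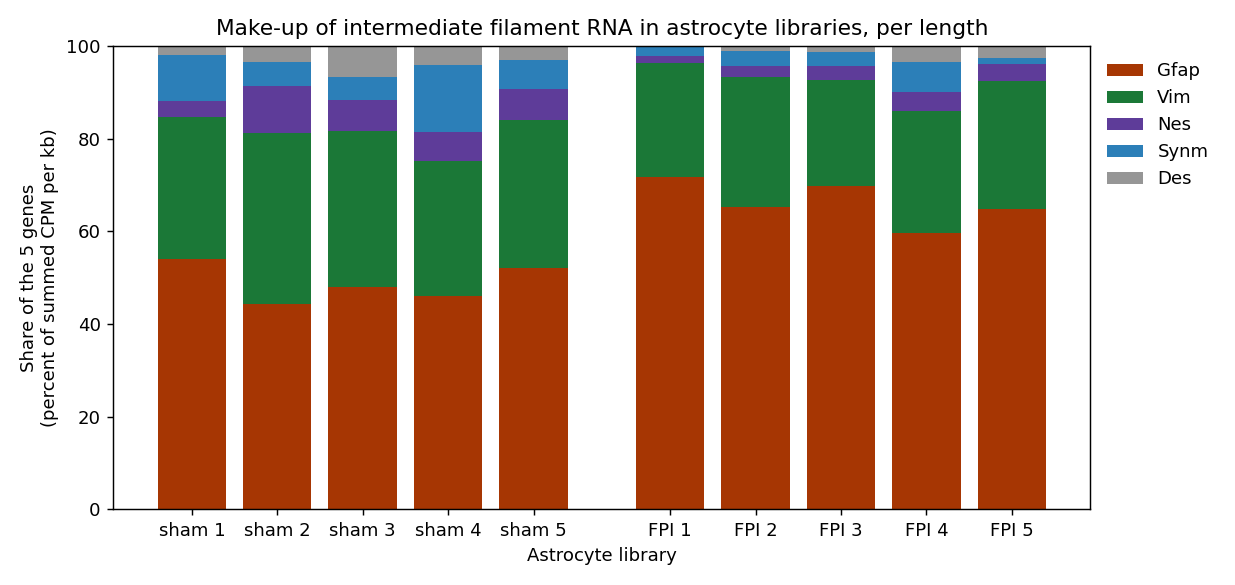
Share of each of the 5 genes in their summed CPM per kb of longest coding transcript, in percent, for each astrocyte library. Gfap takes 44.2% to 53.9% in sham and 59.6% to 71.7% in FPI libraries.

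Set against the 12 astrocyte markers, whose median log2 fold change was -0.29 with none called (median of all genes tested -0.01), Gfap was higher after FPI by 2.15 on the log2 scale (exact permutation p = 0.0159, adjusted over the 9 ratios 0.0357). Vim was higher by 1.39 (exact permutation p = 0.0556, adjusted 0.0833). Nes differed by 0.54, Synm by 0.31 and Des by 0.17 (exact permutation p = 0.540, 0.683 and 0.897). The sham ratios of Gfap ended at -5.36 and the FPI ratios began at -5.58, so that the groups overlapped at their edge.

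Replicates 1 to 3 and replicates 4 and 5 of the astrocytes, which differ in their astrocyte markers, both gave a higher Gfap after FPI. As FPI replicates 2 and 5 may come from the same mouse, these sets may not be independent. In replicates 1 to 3 Gfap was at 147 to 184 CPM in sham and 717 to 882 CPM in FPI, or 2.38 in log2 (SE 0.20, adjusted p = 0.00607 in edgeR). In replicates 4 and 5 it was at 205 and 407 against 516 and 1286 CPM, or 1.56 in log2 (SE 0.54, adjusted p = 1.00). The difference between these effects was -0.80 (SE 0.54, adjusted p = 0.870). The values for Vim were 1.42 (SE 0.25) and 1.04 (SE 0.50).

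Of the other genes of the filament system in lists written for this report, none was called in astrocytes or in microglia. Of 5 neuronal filament genes, 2 passed the filter on low counts in astrocytes and none in microglia, and Nefl, the light neurofilament, was at 3.68 ± 2.30 CPM in sham and 2.93 ± 1.45 CPM in FPI astrocytes. Nefm was at 1.25 ± 1.32 and 2.11 ± 1.85 CPM and Ina, internexin, at 1.18 ± 0.76 and 1.44 ± 1.56 CPM. Of 10 keratin and lens filament genes 5 were tested in astrocytes and none in microglia, led by Bfsp2, a beaded filament gene, at 18.2 ± 17.5 CPM in sham and 23.6 ± 3.86 CPM in FPI astrocytes. Krt10 was at 2.41 ± 1.24 and 1.51 ± 0.49 CPM and Bfsp1 at 1.22 ± 1.15 and 1.13 ± 1.18 CPM. The 3 nuclear lamin genes had a median log2 fold change of 0.22 in astrocytes and 0.50 in microglia. Lmna had 0.22 (SE 0.31) in astrocytes and 0.81 (SE 0.33, unadjusted p = 0.0250, adjusted p = 0.318) in microglia, and Lmnb1 0.41 (SE 0.21) and 0.50 (SE 0.21, unadjusted p = 0.0259, adjusted p = 0.324). Lmnb2 had 0.09 (SE 0.19) and -0.05 (SE 0.29).

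The 10 linker genes tested in astrocytes, whose proteins tie cytoskeletal filaments of several kinds, actin included, to junctions, membrane or other polymers, had a median log2 fold change of -0.04. Plec, which encodes the linker plectin, had 0.33 (SE 0.20) in astrocytes and 0.53 (SE 0.25, unadjusted p = 0.0437, adjusted p = 0.415) in microglia. The spectraplakins Macf1 and Dst and the talin gene Tln1, the 3 of highest mean level over all 20 libraries (in astrocytes alone Utrn, Vcl, Dtna and Plec were above Tln1), had -0.15 (SE 0.30), -0.02 (SE 0.28) and 0.25 (SE 0.18) in astrocytes. The 5 chaperone genes had a median of 0.11 in astrocytes. Cryab, whose small heat shock protein binds GFAP, was at 110 ± 62.5 CPM in sham and 118 ± 42.6 CPM in FPI astrocytes, Hspa8 had -0.06 (SE 0.20) and Bag3 0.10 (SE 0.21). Of 12 genes tested of filament-modifying or cleaving enzymes, with a median of 0.08, only Capn1, which encodes the large subunit of calpain 1, had an unadjusted p below 0.05 in astrocytes, at 3.84 ± 1.58 CPM in sham and 7.48 ± 2.80 CPM in FPI (log2 fold change 0.99, SE 0.39, unadjusted p = 0.0252, adjusted p = 0.999). The kinase genes Rock1, Rock2 and Pak2, the 3 of highest mean level over all 20 libraries, had -0.09 (SE 0.15), 0.06 (SE 0.17) and 0.06 (SE 0.14) in astrocytes, where Capn2 was the most abundant of the list. In microglia the mitotic kinase genes Cdk1 and Plk1 had 1.53 (SE 0.60, unadjusted p = 0.0199, adjusted p = 0.284) and 1.53 (SE 0.70, unadjusted p = 0.0418, adjusted p = 0.407).

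Mean levels of the 5 genes were lower in microglia than in astrocyte libraries of either condition, least so for Nes, whose ranges overlapped between the cell types. In microglia 3 of the 5, Gfap, Vim and Nes, were called higher after FPI, as were 2.13% of the 12143 genes tested. At an unadjusted p below 0.05 it was the same 3, against 7.47% of genes, and for Gfap and Vim every FPI library was above every sham library, against 2.17% of genes. Gfap measured 3.25, 3.95, 1.01, 13.4 and 9.84 CPM in sham replicates 1 to 5 and 51.5, 99.3, 27.5, 14.3 and 17.3 CPM in FPI replicates 1 to 5. FPI replicates 4 and 5 lay close above sham replicates 4 and 5. In log2 terms it rose by 2.78 (SE 0.55, adjusted p = 0.00772 in edgeR). With robust empirical Bayes the adjusted p was 0.143.

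Vim measured 12.9, 10.97, 10.4, 13.5 and 12.5 CPM in sham microglia replicates 1 to 5 and 28.9, 65.8, 20.9, 13.7 and 34.9 CPM in FPI microglia replicates 1 to 5. The sham libraries lay close together, and the lowest FPI value was barely above them. It rose by 1.46 on the log2 scale (SE 0.31, adjusted p = 0.0126 in edgeR). Nes measured 11.1, 13.4, 8.73, 25.8 and 16.8 CPM in sham and 48.5, 20.6, 54.5, 31.8 and 15.5 CPM in FPI microglia replicates 1 to 5. The groups overlapped, with FPI replicate 5 below sham replicates 4 and 5. It rose by 1.19 (SE 0.32, adjusted p = 0.0666 in edgeR), and without 1 of 7 libraries in turn it was not called (adjusted p up to 0.187). Synm ran from 2.25 to 5.37 CPM in sham and from 1.69 to 5.63 CPM in FPI microglia, with a log2 fold change of -0.06 (SE 0.49). Des had 1 count in all in the FPI microglia libraries, and no fold is given.

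The names of the microglia libraries form 2 series, replicates 1 to 3 and replicates 4 and 5, whose meaning is not given in the sources used here. Gfap was at 1.01 to 3.95 CPM in sham and 27.5 to 99.3 CPM in FPI in the first series, which edgeR fitted as a change of 4.40 in log2 (SE 0.47, adjusted p = 7.12e-05). In the second it was at 9.84 and 13.4 CPM in sham and 14.3 and 17.3 CPM in FPI, or 0.49 in log2 (SE 0.38, adjusted p = 0.685). The difference between the series was -3.93 (SE 0.66, adjusted p = 0.0399), which passed for 2 genes in all, 0.0165% of those tested. Nes had 1.88 (SE 0.33) and 0.18 (SE 0.37), with an adjusted p of 0.321 for the difference, and Vim 1.74 (SE 0.35) and 0.96 (SE 0.42), with 0.659. The 10 macrophage markers summed to 148 to 462 CPM in the first series and 21.2 to 66.9 CPM in the second, so that the series and the macrophage RNA cannot be told apart.

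**Figure D4:**
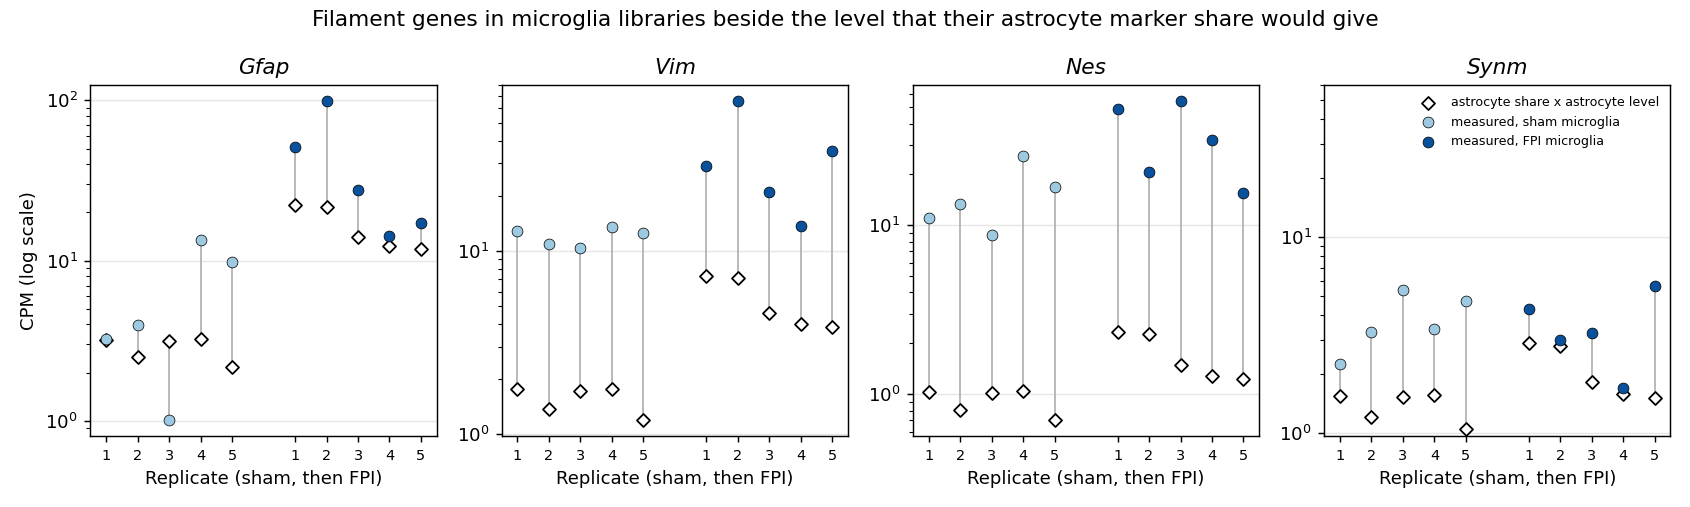
CPM on a log scale in each microglia library, sham replicates 1 to 5 and then FPI replicates 1 to 5. Filled points are measured values, and open diamonds are the library's share of astrocyte markers times the mean level of the gene in astrocytes of the same condition. Vim and Nes lie above the diamonds in all 10 libraries, and Gfap in 9 of 10.

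Astrocyte markers in the same libraries bear on how much of this signal astrocyte RNA would bring. They summed to 352, 276, 347, 355 and 238 CPM in sham microglia replicates 1 to 5 and to 556, 540, 351, 306 and 293 CPM in FPI microglia replicates 1 to 5, and 4 of the 12 had an unadjusted p below 0.05 with a higher level after FPI, with none called. None of the 12 stayed below 1 CPM throughout a group. The FPI libraries with the highest marker sums, replicates 1 and 2, were also those with the highest Gfap. Against the mean sum in astrocytes of the same condition the share was 0.997% to 1.48% in sham and 1.39% to 2.63% in FPI microglia. Times the astrocyte level of Gfap it gave 2.18 to 3.24 CPM in sham and 11.8 to 22.3 CPM in FPI, and the measured Gfap was 0.318 to 4.52 times and 1.16 to 4.58 times that. For Vim it gave 3.85 to 7.28 CPM in FPI, and the measured Vim was 3.41 to 9.29 times that (6.01 to 10.5 times in sham). Measured Nes was 9.05 to 36.9 times the product in FPI and 8.59 to 24.8 times in sham, and measured Synm 1.07 to 3.72 times and 1.45 to 4.52 times. Without Slc1a2 and Slc1a3, which held most of the sum, the share was 0.412% to 0.731% in sham and 0.739% to 2.00% in FPI. The measured level of Vim and Nes in microglia libraries was above the astrocyte product in all 10 libraries with either marker set, and that of Gfap in 9 of 10. In sham replicate 1 Gfap was only 1.01 times the product with all 12 markers. The products hold if the astrocyte RNA had the mean make-up of the sorted astrocyte libraries, and its part in the signal was not tested.

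Markers of other cells were measured in the same microglia libraries. Mki67, a gene of dividing cells, was at 39.1, 77.4, 22.1, 6.31 and 39.3 CPM in FPI microglia replicates 1 to 5, highest and lowest in the libraries where Vim was but not where Nes was, and was called higher than in sham (log2 fold change 1.73, SE 0.45, adjusted p = 0.0570 in edgeR). Top2a, also a gene of dividing cells, was at 13.9, 32.2, 11.8, 12.9 and 46.7 CPM in the same libraries, an order that neither Vim nor Nes had, and was called too (log2 fold change 1.90, SE 0.40, adjusted p = 0.0124). Both were chosen for mention after their values were seen. The 9 endothelial markers summed to between 67.1 and 102 CPM in sham and between 78.4 and 96.3 CPM in FPI microglia, and the 10 mural markers to between 23.1 and 54.2 and between 26.9 and 75.8 CPM. The 10 macrophage markers ran from 21.2 to 462 CPM in sham and from 23.8 to 272 CPM in FPI microglia. The endothelial markers, with which Nes ran in astrocyte libraries, averaged 88.7 CPM in sham and 86.6 CPM in FPI microglia. In sham and FPI astrocytes they averaged 311 and 325 CPM. The part of dividing cells, macrophages, endothelial cells or mural cells in Vim and Nes was not tested.

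The effect of FPI was not shown to differ between the cell types for Gfap, Vim, Nes or Synm, and Des is left out for its counts near 0 in microglia. The difference, astrocytes less microglia, was -0.81 for Gfap (SE 0.75, adjusted p = 0.945 in edgeR), -0.24 for Vim (SE 0.48, adjusted p = 1.00), -0.83 for Nes (SE 0.63, adjusted p = 0.898) and 0.12 for Synm (SE 0.53, adjusted p = 1.00). An adjusted p below 0.1 was reached by 0.199% of the 15077 genes tested. The fit took the libraries as independent, and without the microglia libraries of the 3 mice with both cell types the difference for Gfap was -0.17 (SE 0.75).

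**Figure D5:**
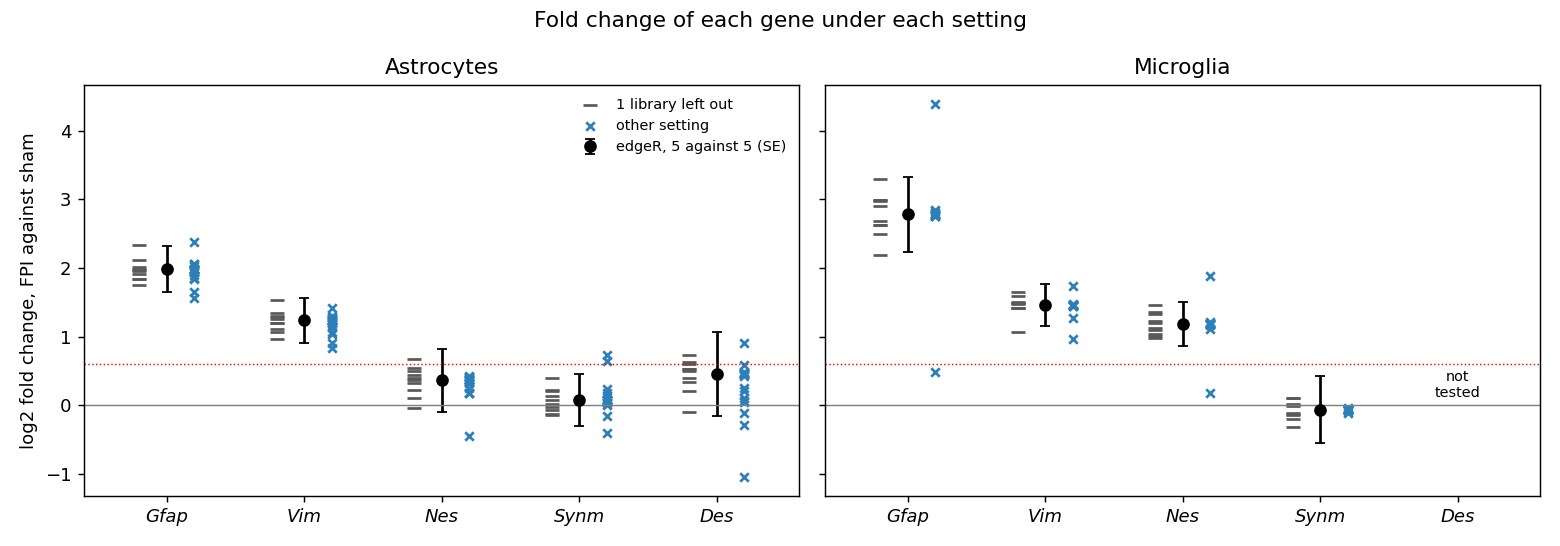
Log2 fold change of each gene between FPI and sham in astrocytes and in microglia. Black points with SE bars are the edgeR fits of 5 against 5 libraries, dashes leave out 1 library each, crosses are the other settings, and the dotted line is the 0.6 needed for a call. Gfap and Vim stay above that line in every astrocyte fit drawn, and there Nes, Synm and Des have values on both sides of 0.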

How the data were processed

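The authors aligned reads with HISAT2 (2.1.0) to GRCm38 and deposited whole-number counts of reads per gene, without normalization, and per the labels featureCounts was among their tools. The strand setting is not given in the sources used here. Astrocyte and microglia libraries were fitted separately by the quasi-likelihood test of edgeR 4.0.16 (R 4.3.3) with TMM scaling, on the genes that filterByExpr kept, adjusted by Benjamini-Hochberg over all genes tested, and all 20 libraries were fitted together for contrasts of the cell types. SEs are the log2 fold change over the square root of F. A gene was called at adjusted p below 0.1 and a log2 fold change of either sign beyond 0.6. Levels are given as CPM with TMM factors over all 20 libraries, so that ratios of means differ a little from fitted folds. Ratios of genes had 0.5 CPM added to each and were compared by exact permutation tests, and correlations used 100000 permutations with Benjamini-Hochberg adjustment. Python 3.11.15, scipy 1.17.1 and DESeq2 1.42.0 (an alternative) were also used. The edgeR fit was tested on simulated counts.

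The members, lists and tests were chosen with earlier results of these data known. Named genes are the 5 members, the list genes called or with an unadjusted p below 0.05 in either cell type, the 3 genes of each list with the highest mean CPM over all 20 libraries, the 5 genes most like Gfap and the 5 most like Vim, and markers set beside a result. Each library is 1 mouse and 1 cell type, with groups taken from titles, and p-values measure the spread between these libraries. FPI astrocyte replicates 2 and 5 share an animal number and may come from the same mouse. The edgeR and DESeq2 fits, ratio tests and correlations that held both took them as independent, except the edgeR fit with them summed. Promoters are from RefSeq (GRCm38.p6), which held all 5 genes, and 37693 of 39017 identifiers were found in GENCODE M21. Alternatives were DESeq2, RLE factors, other filters and thresholds, robust empirical Bayes, a replicate block, joint fits, terms for marker sums or series of libraries, and leaving out each library. Terms for marker sums, the split of replicates 1 to 3 from 4 and 5, DESeq2 without a filter, ratios to the astrocyte markers and the marker set without Slc1a2 and Slc1a3 were added after seeing the data. Sequence shared between the members is not reported here.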

Additional observations from a re-analysis of the deposited data

Results flagged for a closer look

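Gfap in sham astrocyte replicate 5, at 407 CPM, stood apart from the other 4 sham astrocyte libraries, which ran from 147 to 205 CPM (gap over range 0.779, above Dixon's value of 0.710 for 5 libraries). Des in FPI microglia replicate 3, at 0.120 CPM, stood apart because the other 4 libraries were at 0, and the value rests on 1 count. Of 20 groups of values looked at, chance alone would flag about 1 in 20. The effect of FPI on Gfap differed between the 2 series of library names in microglia by -3.93 on the log2 scale (adjusted p = 0.0399 in edgeR), with 4.40 in replicates 1 to 3 and 0.49 in replicates 4 and 5.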

How the results depend on the processing

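In astrocytes no member was called in the edgeR fit, 1 (Gfap) with DESeq2 (log2 fold change 1.99), with every gene of at least 1 count (1.95), with a term for replicates 4 and 5 (2.06), with a term for mural markers (2.06) and in replicates 1 to 3 alone (2.38), and 2 (Gfap and Vim) with DESeq2 and no filter (1.99 and 1.24) and with a replicate block (2.04 and 1.27, adjusted p = 0.0101 and 0.0191). No label says that a replicate number marks a shared mouse, litter or day, so the block is not taken as a pairing. Deviations of same-numbered astrocyte libraries correlated between -0.007 and 0.49, the best match of a number being its own in 3 of 5 cases. Leaving out each library gave 0 to 1 member called, 1.76 to 2.34 for Gfap, 0.97 to 1.53 for Vim, -0.033 to 0.67 for Nes, -0.13 to 0.40 for Synm and -0.10 to 0.74 for Des. Signs that turned among values never called were -0.45 for Nes, -0.15 for Synm and -1.04 for Des with a fibroblast term, -0.11 for Des with an astrocyte term, -0.29 for Des in replicates 1 to 3 and -0.41 for Synm in replicates 4 and 5.

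In microglia no member was called in replicates 4 and 5 alone (0.49 for Gfap, 0.96 for Vim, 0.18 for Nes). Gfap was lost with robust empirical Bayes (2.78) and had no value at 10 counts in every library. Nes was lost with a replicate block (1.12), with all 20 libraries (1.17) and at adjusted p below 0.05 (1.19). Leaving out each library gave 2 to 3 members called, 2.19 to 3.29 for Gfap, 1.06 to 1.66 for Vim, 0.98 to 1.46 for Nes and -0.31 to 0.11 for Synm. In the difference between cell types it gave 0 members, with -0.48 to 0.18 for Vim and -0.062 to 0.45 for Synm, and in sham mice 5 members throughout. Ratios to Gfap ran from -2.39 to -1.35 for Des, and all 10 fits passed for Vim, Nes and Synm. The ratio of Vim to the astrocyte markers ran from 1.05 to 1.71. The replicate block changed no other call. Low counts limit Des and Synm in microglia.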
